A study of Homo sapiens with 12 samples.

Results

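The genes described here are the expressed human zinc finger genes named ZNF with a number and no further letter. The members were chosen by brightness: a gene was kept if the mean of its brightest probe set (the group of array probes that reads 1 transcript region) over all 12 arrays was at least 7 on the log2 scale. Of 425 such symbols among 19775 genes tested, 87 met this rule, with ZNF521 and ZNF423 left out by the rule. Their brightness is a description and not a result. The genes just inside the limit were ZNF558, ZNF101 and ZNF384, at 7.021, 7.027 and 7.029, and those just outside were ZNF331, ZNF629 and ZNF589, at 6.996, 6.961 and 6.952. The mean over arrays of the members ran up to 10.9 for ZNF706, and 55 of the 87 lay below 8.

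RNA was taken from TC71 and TC32, both established lines grown from Ewing sarcomas, tumours driven by a fusion of EWSR1 with an ETS factor. The groups were TC71 with mithramycin, TC71 with solvent, TC32 with mithramycin and TC32 with solvent, and each had 3 biological replicates with 1 array apiece. Mithramycin is an antibiotic that binds GC-rich DNA and displaces factors of the Sp family from it. It was given at 100 nM for 6 h, the controls received solvent only, and all dishes had been plated in the same way and left to recover overnight. Each line stands for 1 tumour, and the tumours' own surroundings are not part of the model. The Ewing sarcoma marker list had 6 of 7 genes measured, of which 5 had a mean of at least 7, among them CD99 at 11.57, and none of the blood, epithelial or endothelial markers measured (4 of each) reached 7, the highest of their group means being 5.36. Of the 5 fibroblast markers 2 reached 7, and 3 were called higher with mithramycin in TC71 (median change 0.338, highest 0.93) and 1 in TC32 (median 0.004), with 2 called higher for the TC71 effect minus the TC32 effect. The part of this movement in the members' changes was not tested.

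Zinc finger proteins of this group typically carry tandem C2H2 fingers, loops held by a zinc ion, each reading a few bases of DNA. Many of them also hold a KRAB domain, which recruits the corepressor TRIM28 and, through it, the histone methyltransferase SETDB1 and heterochromatin proteins, to silence transposable elements and other targets. Others lack that domain and act as activators, as parts of splicing or ribosome pathways, or as ubiquitin or SUMO ligases. Many of their genes lie in clusters of recent duplicates, and their messages are generally low and short-lived.

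In TC71, more members rose with mithramycin than fell. Of the 87, 32 rose (36.8%) and 20 fell (23%), while 35 did not pass the test. Over all genes tested 19.4% were called higher and 16.1% lower in this comparison, and among the 6166 genes that met the same brightness limit 28.8% were called higher and 26.5% lower. The median change of the members was 0.105, against 0.038 for the genes of like brightness and 0.067 for all genes. In TC32, 25 members rose (28.7%) and 33 fell (37.9%), against 25.6% called higher and 19.4% lower over all genes and 33.4% higher and 31.5% lower among genes of like brightness. The members' median change in TC32 was -0.074, against 0.037 and 0.083 for those sets. The lower lean in TC32 depended on the processing: quantile normalization again gave 29 higher and 26 lower, and the mean of all probe sets of a gene gave 27 higher and 28 lower with a members' median of 0.022. At the brightest set of each gene, ZNF143 in TC32 was the 1 member past 2-fold, and no member was in TC71, while dimmer sets of ZNF827, ZNF207 and ZNF397, among others, went further. In bulk RNA, a change in the share of cells that express a gene and a change in RNA per cell cannot be told apart.

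The tests were moderated linear models fitted over all genes at once, with a call at an adjusted p under 0.05. The deposited values are relative to the other genes on an array. With arrays centred on hybridization controls (RNAs added before hybridization) the median change of all genes in TC32 moved to -0.133 from 0.083. The members' split became 8 higher and 40 lower. Over all 19775 genes the TC32 calls moved the same way, from 5060 higher and 3831 lower to 706 and 4904. The signal of beta-actin near its 3' end minus that near its 5' end tracks RNA integrity. In TC71 it averaged 0.88 ± 0.10 for the mithramycin arrays and 1.45 ± 0.48 for the controls (SD, n = 3; two-sided exact permutation test, p = 0.1, which is the lowest this design allows). Control replicate 1 stood at 2.0, and with this quantity as a model term 20 members were higher and 11 lower there. Over all genes the TC71 counts with that term were 2158 and 2461, from 3828 and 3190. In TC32 the beta-actin quantity averaged 0.60 ± 0.08 for the mithramycin arrays and 0.71 ± 0.04 for the controls (SD, n = 3; two-sided exact permutation test, p = 0.2). The members' counts with that term were 24 and 33, and those over all genes 4848 and 3760.

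**Figure D1:**
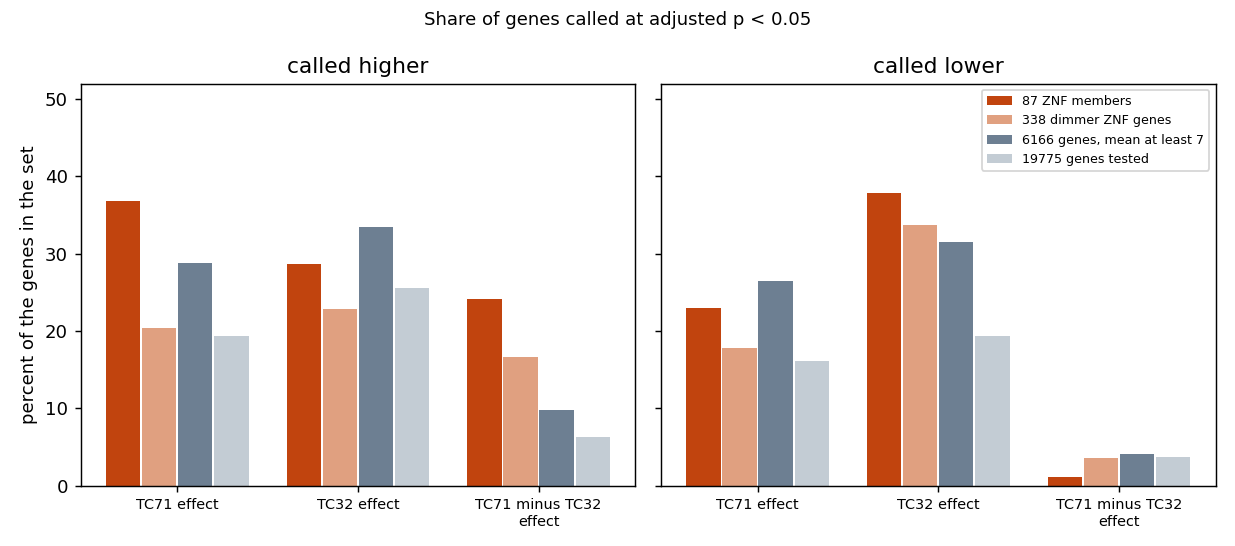
Percent of genes called higher (left) or lower (right) at adjusted p under 0.05, for the effect in TC71, the effect in TC32 and the TC71 effect minus the TC32 effect. Bars show the 87 members, the 338 dimmer ZNF genes, the 6166 genes of mean 7 or above and all 19775 genes, and for the difference of effects 24.1% of the members were called higher and 1.15% lower.

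The array by array level of the whole group moved little. The median of the 87 members was 7.83, 7.81 and 7.83 on the TC71 mithramycin arrays and 7.69, 7.71 and 7.68 on the TC71 control arrays, so the groups did not overlap. Over genes of like brightness the same median was lower with mithramycin in TC71, between 8.51 and 8.55, than in controls, between 8.57 and 8.59. In TC32 the members' median was 7.62, 7.80 and 7.64 with mithramycin and 7.75, 7.76 and 7.72 in controls. Those groups overlapped, because TC32 mithramycin replicate 2 stood above every control array. Over genes of like brightness the TC32 median was lower with mithramycin too, at 8.43, 8.51 and 8.44 against 8.53, 8.55 and 8.54 in controls. Taken gene by gene, the median change of those genes was nonetheless 0.038 in TC71 and 0.037 in TC32. Of the members, 57 had a mean of at least 7 in all 4 groups. These held 20 higher (35.1%) and 12 lower (21.1%) calls in TC71 and 13 higher (22.8%) and 21 lower (36.8%) in TC32. Among genes of like brightness, chosen on the mean over all arrays, 28.8% were higher and 26.5% lower in TC71, and 33.4% and 31.5% in TC32. The other 30 members passed the limit through the groups in which they were brighter.

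ZNF143, an activator that binds at the promoters of many housekeeping genes and takes part in chromatin looping, fell furthest in each line at the brightest set of each gene. Its probe set read 6.84, 6.83 and 6.89 on the TC71 mithramycin arrays, against 7.70, 7.75 and 7.70 in TC71 controls. In TC32 it read 6.61, 6.84 and 6.77 with mithramycin, against 7.85, 7.80 and 7.66 in controls. All treated arrays therefore lay below all controls. It fell by 0.86 ± 0.07 (SE, n = 3 per group; adjusted p = 1.34e-06) in TC71 and by 1.03 ± 0.07 (adjusted p = 2.15e-07) in TC32, or 1.82-fold and 2.04-fold on the linear scale. A second, dim set of the gene, with a mean of 3.22, stood at 0.03 in TC71 and was called higher, at 0.24, in TC32. Dimmer sets of other members fell further than ZNF143. A set of ZNF827, with a mean of 6.58, was called lower at -2.0 in TC71 and -2.01 in TC32, and another, with a mean of 5.29, at -1.58 in TC71 and -1.33 in TC32. The brightest set of ZNF827 was called lower at -0.22 in TC71 and -0.52 in TC32.

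At the brightest set of each gene, ZNF143 and ZNF367 fell furthest in TC71 and ZNF785 rose furthest there. At those sets, ZNF232 was the member whose effects differed most between the lines. Because mithramycin binds GC-rich DNA, the promoters of ZNF143, ZNF367, ZNF785 and ZNF232, which mark these ends of the response, are printed here. They come from the RefSeq promoter table for GRCh38.p14 and run 5' to 3' from 250 bases before to 50 bases after the gene's start, with each GC box (GGGCGG, or CCGCCC where it lies on the other strand) in capitals.
ZNF143 promoter (chr11:9460762-9461061, plus strand): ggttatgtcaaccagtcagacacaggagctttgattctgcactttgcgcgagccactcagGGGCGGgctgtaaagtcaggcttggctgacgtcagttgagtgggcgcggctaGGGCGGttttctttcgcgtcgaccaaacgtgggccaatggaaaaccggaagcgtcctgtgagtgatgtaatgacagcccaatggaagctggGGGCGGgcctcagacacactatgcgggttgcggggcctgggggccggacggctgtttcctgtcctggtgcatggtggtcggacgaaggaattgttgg
ZNF367 promoter (chr9:96418321-96418620, minus strand): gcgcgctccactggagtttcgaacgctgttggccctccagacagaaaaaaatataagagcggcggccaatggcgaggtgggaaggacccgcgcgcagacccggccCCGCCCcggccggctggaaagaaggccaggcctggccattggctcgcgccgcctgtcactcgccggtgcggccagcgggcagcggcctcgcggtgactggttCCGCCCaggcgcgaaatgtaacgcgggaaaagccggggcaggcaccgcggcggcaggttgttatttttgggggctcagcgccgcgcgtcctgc
ZNF785 promoter (chr16:30585648-30585947, minus strand): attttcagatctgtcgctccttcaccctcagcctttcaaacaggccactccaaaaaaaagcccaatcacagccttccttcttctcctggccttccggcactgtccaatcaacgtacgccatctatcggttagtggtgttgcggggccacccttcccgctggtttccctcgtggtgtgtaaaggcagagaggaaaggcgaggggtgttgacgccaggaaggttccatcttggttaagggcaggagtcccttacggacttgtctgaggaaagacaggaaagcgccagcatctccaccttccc
ZNF232 promoter (chr17:5123067-5123366, minus strand): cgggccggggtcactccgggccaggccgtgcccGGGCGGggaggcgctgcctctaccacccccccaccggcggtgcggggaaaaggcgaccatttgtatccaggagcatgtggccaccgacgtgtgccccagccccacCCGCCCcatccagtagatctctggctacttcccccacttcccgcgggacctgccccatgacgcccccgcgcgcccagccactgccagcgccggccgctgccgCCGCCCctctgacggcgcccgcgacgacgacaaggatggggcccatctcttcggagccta
ZNF143 held 3 GC boxes in a window of 59.3% GC, ZNF367 held 2 at 69.0% GC, ZNF785 held none at 54.7% GC, and ZNF232 held 3 at 73.3% GC at the first of its 3 listed starts.

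Across the 77 members with an entry in that table, promoter composition was set beside the direction of change. The median GC share was 63.0% for the 21 with an entry that rose in both lines and 63.7% for the 13 that fell in both, against 64.3% for all 77 and 65.0% for genes of like brightness. A GC box on either strand was found in 16 of the 21 (76.2%) and in 8 of the 13 (61.5%), against 72.7% of the members, 72.1% of genes of like brightness and 44.6% of all promoters of this length in the table. Across members, the GC share correlated with the log2 change at -0.05 (Pearson) in TC71 and -0.031 in TC32 (n = 77 genes, which share the arrays and are not replicates). For the 17 with an entry that were called higher for the TC71 effect minus the TC32 effect, the median GC share was 66.0%. Of these, 15 held a GC box (88.2%). The GC share correlated with that difference at -0.015 across the 77 members (Pearson). A match is a description of the letters and not a site in use. Where a member had several listed starts, as 21 of the 77 did, only the first was read. The members outside these 77 were ZNF7, ZNF395, ZNF621, ZNF703, ZNF704, ZNF706, ZNF721, ZNF738, ZNF746 and ZNF827.

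In TC71, the further falls were led by ZNF367, ZNF532 and ZNF362. ZNF367 read 7.33, 7.22 and 7.24 with mithramycin and 8.10, 8.08 and 8.0 in controls, and fell by 0.79 ± 0.08 (adjusted p = 1.16e-05). ZNF532, known as a fusion partner of NUT in NUT carcinoma, read 7.98, 7.86 and 7.90 with mithramycin and 8.66, 8.69 and 8.72 in controls, and fell by 0.78 ± 0.05 (adjusted p = 2.49e-07). ZNF362, a paralogue of ZNF384, read 7.63, 7.46 and 7.57 with mithramycin and 8.38, 8.20 and 8.18 in controls, and fell by 0.70 ± 0.07. In none of these genes did the arrays overlap. ZNF638, a nuclear protein that silences unintegrated retroviral DNA, fell by 0.56 ± 0.05, ZNF655 by 0.53 ± 0.05, ZNF704 by 0.51 ± 0.05 and ZNF148, which binds GC-rich promoter elements, by 0.39 ± 0.06. The call of ZNF638 ended, in each line, without probe sets that can match several transcripts (names ending in _x_at or _s_at), and 1 of its 5 sets was called higher in TC71, at 0.58. The sets of ZNF148 ran from -0.96 to -0.08 in TC71.

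The rises in TC71 were led by ZNF785, ZNF830 and ZNF302. ZNF785 read 7.96, 7.80 and 7.89 with mithramycin and 7.26, 7.11 and 7.13 in controls, and rose by 0.72 ± 0.08 (adjusted p = 1.75e-05), or 1.64-fold. ZNF830, whose mouse counterpart is needed by the early embryo, read 8.02, 8.03 and 8.02 with mithramycin and 7.32, 7.24 and 7.37 in controls, and rose by 0.71 ± 0.06 (adjusted p = 2.2e-06). ZNF302 read 8.10, 8.01 and 8.03 with mithramycin and 7.24, 7.46 and 7.31 in controls, and rose by 0.71 ± 0.08. Treated and control arrays were again fully apart. ZNF18 rose by 0.65 ± 0.08, ZNF397 by 0.58 ± 0.07, ZNF621 by 0.57 ± 0.07 and ZNF322 by 0.52 ± 0.05. The call of ZNF621 ended with the mean of all its sets. A dimmer set of ZNF322, with a mean of 5.35, stood at 0.01 in TC71 and was called lower, at -1.0, in TC32. ZNF200 rose by 0.65 ± 0.08 at its brightest set, but its other set stood at -0.02 in TC71 and was called lower, at -0.50, in TC32.

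**Figure D2:**
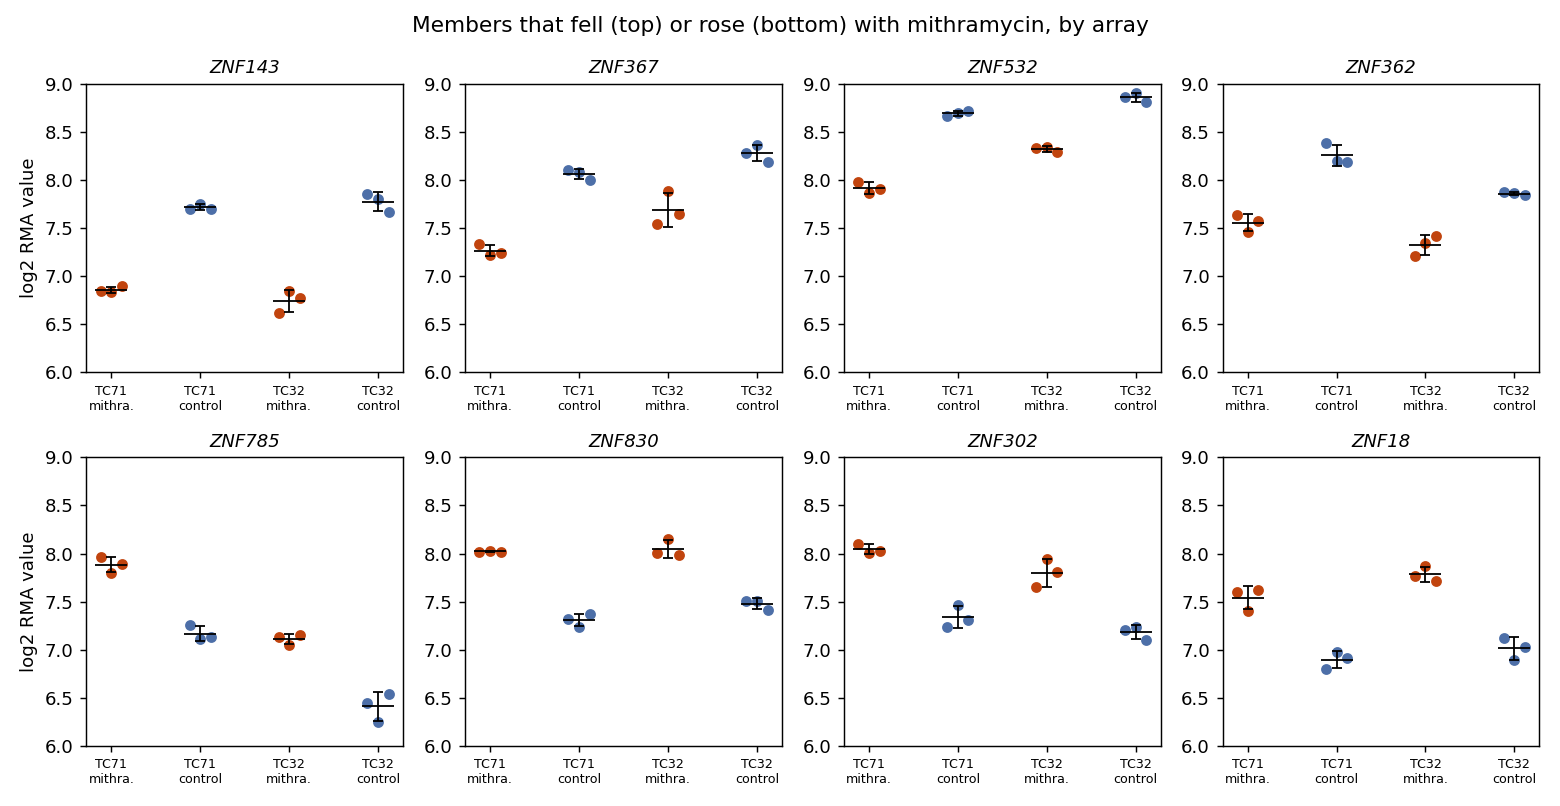
Log2 RMA values on each array (points) with the mean and SD of 3 arrays (black) for the 4 members that fell furthest in TC71 (top) and 4 that rose (bottom), with mithramycin left of control in each line. In all 8 genes the mithramycin arrays lie fully below or fully above the controls of the same line.

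In TC32, the members that fell furthest after ZNF143 were ZNF232, ZNF239 and ZNF765. ZNF232, a SCAN domain protein, read 6.74, 6.90 and 6.72 with mithramycin and 7.80, 7.65 and 7.81 in controls, and fell by 0.97 ± 0.07 (adjusted p = 2.81e-07). ZNF239 read 6.41, 6.35 and 6.48 with mithramycin and 7.31, 7.36 and 7.34 in controls, and fell by 0.92 ± 0.05 (adjusted p = 4.14e-08). ZNF765 read 6.63, 6.80 and 6.67 with mithramycin and 7.46, 7.66 and 7.38 in controls, and fell by 0.80 ± 0.08. The arrays of each gene did not overlap. ZNF639 fell by 0.69 ± 0.08, ZNF704 by 0.69 ± 0.05, ZNF689 by 0.67 ± 0.08 and ZNF655 by 0.65 ± 0.05.

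The highest rises in TC32 were those of ZNF200, at 0.98 ± 0.08 with the limit given above, and ZNF18. ZNF18, which carries a SCAN and a KRAB domain, read 7.77, 7.87 and 7.71 with mithramycin and 7.12, 6.89 and 7.03 in controls, and rose by 0.77 ± 0.08 (adjusted p = 1.07e-05). ZNF785 read 7.13, 7.05 and 7.15 with mithramycin and 6.44, 6.25 and 6.54 in controls, and rose by 0.70 ± 0.08. Neither gene's groups overlapped. ZNF621 rose by 0.66 ± 0.07, ZNF302 by 0.62 ± 0.08, ZNF830 by 0.57 ± 0.06 and ZNF419 by 0.56 ± 0.07. ZNF622, which takes part in the maturation of the large ribosomal subunit, read 9.19, 9.19 and 9.09 with mithramycin and 8.59, 8.63 and 8.52 in controls, and rose by 0.57 ± 0.06 (adjusted p = 8.49e-06).

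Members of known role moved in different directions. Of the 13 of a list of known roles, ZNF143, ZNF148, ZNF598 and ZNF638 fell in both lines, and ZNF24, ZNF281 and ZNF622 rose in both. ZNF598, the ubiquitin ligase that marks collided ribosomes, fell by 0.28 ± 0.08 in TC71 (adjusted p = 0.0165) and by 0.59 ± 0.08 in TC32. The call in TC71 ended in 7 settings, among them quantile normalization again and the beta-actin term. It also ended without TC71 mithramycin replicate 2 (-0.24), without mithramycin replicate 3 or without control replicate 3 (-0.26 each). ZNF281, which like ZNF148 binds GC-rich elements, rose by 0.24 ± 0.05 in TC71 and 0.16 ± 0.05 in TC32 (adjusted p = 4.15e-03 and 0.0289). The call at this brightest set ended in 3 settings in TC71 and 7 in TC32, with centring on housekeeping genes among them in each line. Those in TC32 included the fits without mithramycin replicate 2 or 3 or control replicate 1 or 3. Its other sets, with means of 8.59 and 8.21, were called higher too, at 0.55 and 0.58 in TC71 and 0.57 and 0.72 in TC32. ZNF24, a SCAN domain protein, rose by 0.39 ± 0.05 in TC71 and 0.23 ± 0.05 in TC32. ZNF622 rose by 0.50 ± 0.06 in TC71.

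ZNF274, ZNF335 and ZNF451 fell in TC32 and were not called in TC71. ZNF274, a KRAB protein that brings SETDB1 to zinc finger gene clusters, read 7.38, 7.33 and 7.36 in TC71 with mithramycin, against 7.50, 7.51 and 7.53 in controls (-0.16 ± 0.07; adjusted p = 0.0873), and 7.03, 7.31 and 7.09 in TC32 with mithramycin, against 7.66, 7.66 and 7.72 in controls, where it fell by 0.54 ± 0.07. Its second set stood at 0.06 in TC71 and 0.08 in TC32, and the call of the brightest set in TC32 rests on an _s_at set. ZNF335, a part of histone methyltransferase complexes, was at -0.16 in TC71 and fell by 0.32 ± 0.06 in TC32, and ZNF451, a SUMO ligase, was at -0.09 in TC71 and fell by 0.24 ± 0.08 in TC32 (adjusted p = 0.0214). The call of ZNF451 ended in 6 settings, among them those without TC32 mithramycin replicate 2, mithramycin replicate 3 or control replicate 2, and a dimmer set of it was called higher in TC71, at 0.49. The call of ZNF335 ended with the mean of all sets and with quantile normalization again. ZNF217, an oncogene of breast cancer, stood at 0.21 ± 0.09 in TC71 and -0.10 ± 0.09 in TC32, and ZNF384 at 0.09 in TC71 and -0.09 in TC32, none of which passed the test. ZNF207, a kinetochore protein that binds BUB3, stood at 0.11 ± 0.08 in TC71 and -0.16 ± 0.08 in TC32 at its brightest set (adjusted p = 0.318 and 0.138). Its 9 sets ranged from -1.26 to 0.20 in TC71 and from -2.24 to 0.02 in TC32, the strongest fall being that of a set with a mean of 6.11.

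Rises and falls called in both lines outnumbered those called in 1 line, as they also did among genes of like brightness. Across the 87 the log2 changes correlated at 0.817 (Pearson) and 0.828 (Spearman), close to 0.844 and 0.824 over the 6166 genes of like brightness, with points that share the arrays. The rises called in each line numbered 22 members, or 25.3% against 22.5% of genes of like brightness, and the falls called in each line numbered 18, or 20.7% against 22.5%. Called in TC71 alone were 8 rises (9.2%, against 5.17% of genes of like brightness) and 1 fall, that of ZNF652 (1.15% against 3.89%). Called in TC32 alone were 13 falls (14.9%, against 7.91% of genes of like brightness) and 2 rises, those of ZNF101 and ZNF468 (2.3% against 10.8%). ZNF22 and ZNF84 rose in TC71 and fell in TC32, and ZNF81 fell in TC71 and rose in TC32. The fall of ZNF81 in TC71 (adjusted p = 0.0465) lost its call in 15 settings, among them 9 of the 12 fits without 1 array, and a dimmer set of it was called higher there, at 0.58. The other 20 members were called in neither line.

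The test of the difference itself, the TC71 effect minus the TC32 effect, called 21 members higher (24.1%) and 1 lower (1.15%). Over all genes 6.27% were called higher and 3.72% lower, and among genes of like brightness 9.8% higher and 4.09% lower. The median difference of the members was 0.147, against -0.015 for genes of like brightness, and the TC71 change lay above the TC32 change in 58 of 87 members (66.7%), against 46.6% of genes of like brightness. A member could meet the brightness limit through the groups in which it was brighter. Of the 57 with a mean of at least 7 in all 4 groups, 12 were called higher (21.1%), and ZNF232, ZNF239, ZNF227, ZNF689, ZNF765 and ZNF81 are not among the 57. Relative to genes of like brightness, the members' median difference of 0.162 ran from 0.111 to 0.165 over the 16 other settings that can move it. Of the 13 falls called in TC32 alone, 8 had a called difference, against 40.6% of genes of like brightness with that pattern, as had 4 of the 8 rises called in TC71 alone, against 22.3%. The 338 dimmer ZNF genes also leaned this way, with 56 called higher (16.6%) and 12 lower (3.55%). With arrays centred on housekeeping genes 10 members were called higher and 1 lower, and with the beta-actin term in the model 12 and 2. The counts over all 19775 genes also fell, from 1239 higher and 736 lower to 793 and 527 with that centring. With the beta-actin term they were 796 and 409. How far RNA integrity contributed was not tested.

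**Figure D3:**
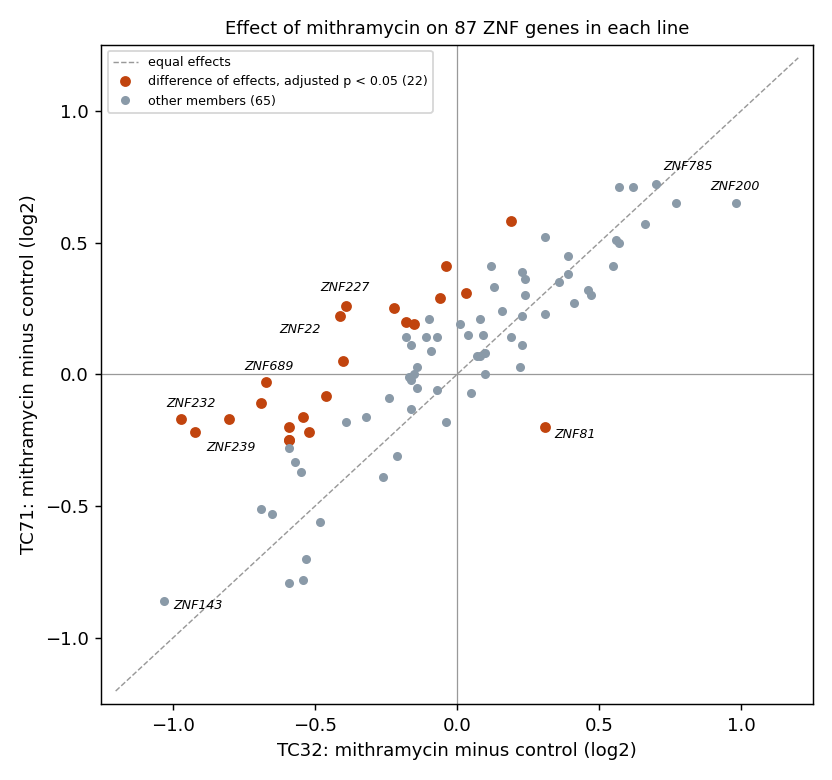
Log2 change with mithramycin in TC71 (vertical) against TC32 (horizontal) for the 87 members, with the line of equal effects dashed. The 22 members with a called difference are drawn in red, and 21 of them lie above the line.

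ZNF232 had the widest difference. In TC71 it read 8.96, 8.88 and 8.98 with mithramycin and 9.16, 9.10 and 9.05 in controls, a change of -0.17 ± 0.07 (adjusted p = 0.0738), beside the fall by 0.97 in TC32, and the difference was 0.80 ± 0.10 (adjusted p = 2.33e-04). ZNF239 read 7.33, 7.30 and 7.37 in TC71 with mithramycin and 7.57, 7.53 and 7.57 in controls, a fall by 0.22 ± 0.05 there, and its difference was 0.70 ± 0.07 (adjusted p = 8.38e-05). ZNF689 read 8.17, 8.11 and 8.15 in TC71 with mithramycin and 8.21, 8.14 and 8.17 in controls, which overlapped, and its difference was 0.65 ± 0.11. ZNF765 had a difference of 0.63 ± 0.11, with an uncalled -0.17 ± 0.08 in TC71.

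Some differences joined opposite movements. ZNF22 read 9.65, 9.65 and 9.68 in TC71 with mithramycin and 9.39, 9.46 and 9.47 in controls, a rise by 0.22 ± 0.05. In TC32 it read 8.67, 8.76 and 8.76 with mithramycin and 9.05, 9.20 and 9.16 in controls, a fall by 0.41 ± 0.05, and the difference was 0.62 ± 0.08 (adjusted p = 2.89e-04). ZNF227 was at 0.26 ± 0.11 in TC71 (adjusted p = 0.0764) and fell by 0.39 ± 0.11 in TC32. Its difference was 0.65 ± 0.15 (adjusted p = 0.0159), and the call of that difference ended with the beta-actin term. ZNF84 rose by 0.25 in TC71 and fell by 0.22 in TC32 at its brightest set, but its second set was called higher in each line, at 0.98 in TC71 and 0.90 in TC32. ZNF81, an X-linked KRAB gene, was the 1 member called lower for the difference, at -0.51 ± 0.10 (adjusted p = 6.88e-03). In TC71 it read 7.67, 7.52 and 7.54 with mithramycin and 7.64, 7.87 and 7.82 in controls, which overlapped, and in TC32 it read 6.78, 6.72 and 6.71 with mithramycin and 6.33, 6.47 and 6.49 in controls.

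**Figure D4:**
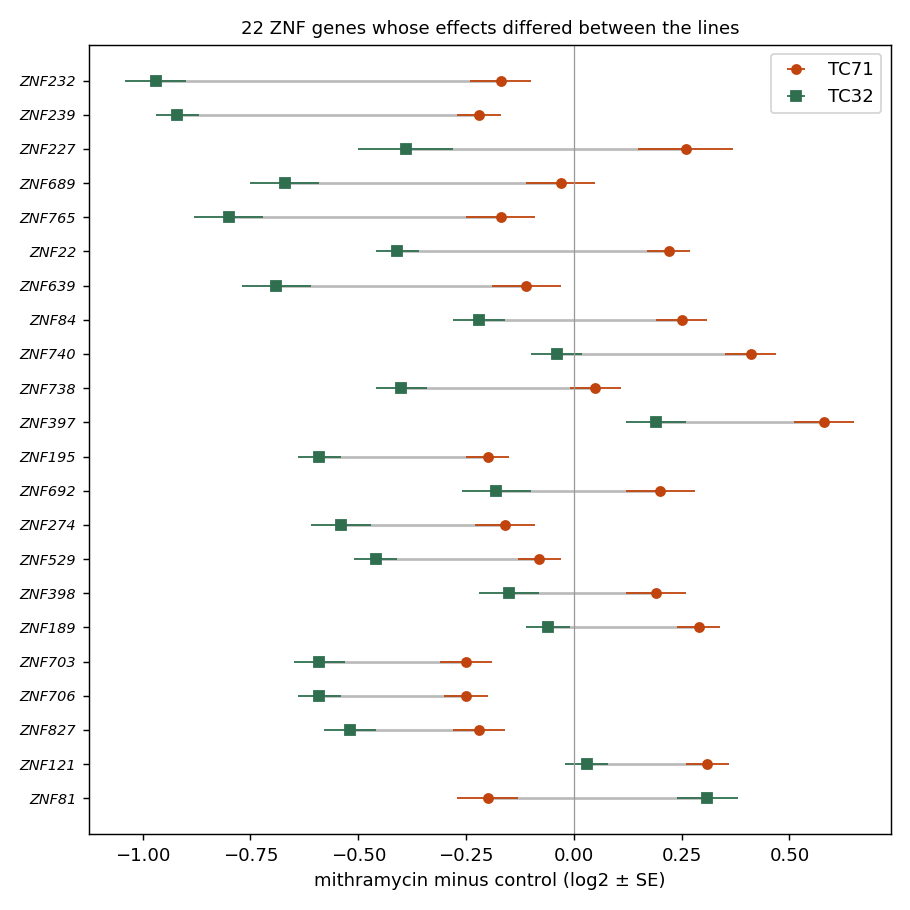
Log2 change with mithramycin (± SE) in TC71 (circles) and TC32 (squares) for the 22 members with a called difference of effects, ordered by that difference. It is 0.80 for ZNF232 at the top and -0.51 for ZNF81 at the bottom.

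Untreated, most members differed between the lines, as did a larger share of genes of like brightness. In TC71 controls against TC32 controls 30 members were called higher (34.5%) and 33 lower (37.9%), together 63 of 87. Among genes of like brightness 42.2% were called higher and 35.5% lower, together 77.7%, and of all genes 51.5% were called either way. A member could meet the brightness limit through 1 line, so these counts are a description. ZNF275 read 6.61, 6.68 and 6.78 in TC71 controls and 8.29, 8.37 and 8.48 in TC32 controls (-1.69 ± 0.07, or 3.23-fold lower in TC71). ZNF195 was lower in TC71 controls by 1.30 on the log2 scale (-1.30 ± 0.05), ZNF738 stood at -1.22 ± 0.06 and ZNF3 at -0.98 ± 0.06. ZNF232 and ZNF81 were higher in TC71, at 1.35 ± 0.07 each, followed by ZNF644, a partner of the histone methyltransferases EHMT1 and EHMT2, at 0.97 ± 0.09 and ZNF706, which in mouse stem cells favours the exit from self-renewal, at 0.88 ± 0.05. ZNF706 was the brightest member, with 11.59, 11.48 and 11.57 in TC71 controls and 10.65, 10.67 and 10.68 in TC32 controls. It fell with mithramycin by 0.25 ± 0.05 in TC71 and 0.59 ± 0.05 in TC32.

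**Figure D5:**
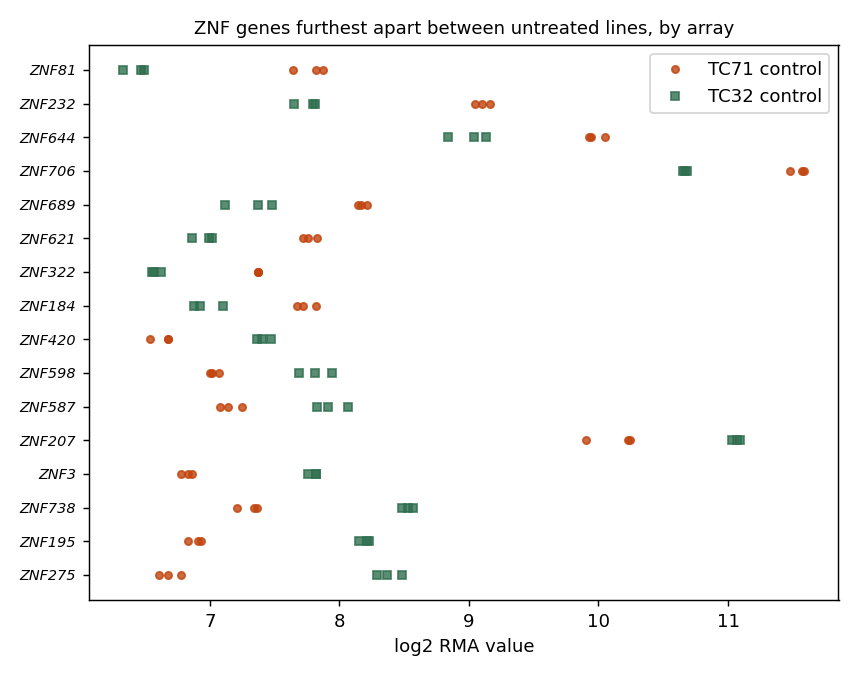
Log2 RMA values on the 3 control arrays of TC71 (circles) and of TC32 (squares) for the 8 members furthest apart in each direction. ZNF81 and ZNF232 stand highest in TC71 relative to TC32, and ZNF275 and ZNF195 lowest.

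The cofactors through which KRAB proteins silence chromatin formed a mixed list. Of 24 measured, each at its brightest set, 4 rose (16.7%) and 8 fell (33.3%) in TC71, against 19.4% and 16.1% of all genes. In TC32, 4 rose (16.7%) and 7 fell (29.2%), against 25.6% and 19.4% of all genes. Among all genes with a mean of at least 7, 28.8% rose and 26.5% fell in TC71, and 33.4% and 31.5% in TC32. TRIM28, the corepressor that binds KRAB domains, rose by 0.27 ± 0.05 in TC71 and 0.34 ± 0.05 in TC32. SETDB1, which methylates histone H3 at sites that TRIM28 marks, fell by 0.81 ± 0.08 in TC71 and 1.04 ± 0.08 in TC32 at its brightest set, while its second set stood at 0.07 in TC71 and 0.00 in TC32. The HUSH subunit TASOR fell by 0.55 ± 0.06 in TC71 and 0.50 ± 0.06 in TC32, and the chromatin remodeller SMARCAD1 by 0.38 ± 0.06 in TC71 and 0.64 ± 0.06 in TC32. UHRF1, which recruits the maintenance methyltransferase DNMT1, fell by 0.83 ± 0.05 in TC71 and 0.72 ± 0.05 in TC32. EHMT1 fell by 2.85 ± 0.11 in TC71 and 1.82 ± 0.11 in TC32, and its weakest set was at -0.49 in TC71. The heterochromatin gene CBX5 rose by 0.25 ± 0.06 in TC71 and 0.41 ± 0.06 in TC32, with 1 of its 6 sets called lower in each line. ATF7IP and CBX3 were not called at their brightest sets. Sets of ATF7IP with means of 8.17 and 7.64 were called lower, at -0.60 and -0.36 in TC71 and -0.62 and -0.56 in TC32. A set of CBX3 with a mean of 8.11 was called higher, at 1.19 in TC71 and 0.73 in TC32. Another, with a mean of 6.66, was called lower in TC32, at -0.38. At the brightest sets, the test of the difference of effects called only EHMT1 and ATRX among these cofactors, at -1.03 and -0.45. The value of EHMT1 rests on its brightest set, since its other 2 sets had uncalled differences of 0.32 and 0.49.

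In the RefSeq gene order, 2 pairs of members lay next to each other among protein-coding genes. ZNF785 rose by 0.72 in TC71 and 0.70 in TC32, while its neighbour ZNF689 stood at -0.03 in TC71 and fell by 0.67 in TC32. ZNF84 and its neighbour ZNF140 rose together in TC71, by 0.25 and 0.38, and in TC32 ZNF84 fell by 0.22 while ZNF140 rose by 0.39, although the second set of ZNF84, at 0.90 in TC32, moved like ZNF140.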

How the data were processed

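Each of the 12 RNA samples from TC71 and TC32 cells was hybridized to its own one-colour array. The authors deposited 1 log2 value per probe set and array, made with RMA (robust multi-array average) per the submitters' processing notes; its version and settings were not given in the sources used here. This method removes background, brings all arrays to 1 distribution by quantile normalization and combines the probes of a set, so a shift common to most genes is largely removed. No detection calls or scan dates were used here. The number of arrays limits the precision.

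Of 54675 probe sets, 62 were controls, 41091 had 1 gene symbol, 1801 several and 11721 were unnamed here. Entrez identifiers matched the RefSeq gene table (GRCh38.p14) for 41037 sets. Each of 19775 genes was represented by its brightest set. Of the 87 members, 66 had more than 1 set and 23 rest on _x_at or _s_at sets, which can match several transcripts of these related genes.

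All arrays entered 1 model with a mean per group (limma 3.58.1, R 4.3.3, empirical Bayes; two-sided; Benjamini-Hochberg adjustment over all genes of a contrast; called under 0.05). Errors are standard errors of the model. The script was tested on simulated data. Named members were, per line, the 8 highest rises and 8 deepest falls among called genes with separate arrays, up to 5 of the widest called differences of effects each way and the 4 widest line differences each way, those next to the brightness limit, and those of a list of known roles. ZNF22, ZNF84 and ZNF140, and members singled out by a small count, were named after their values were seen. The members and lists were chosen with earlier results of these data known. Protein sequences were not used here, so KRAB and finger content were not computed.

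Same-numbered treated and control arrays deviated from their group means with correlations from -0.153 to 0.406, so the numbers were not taken as pairs.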

Additional observations from a re-analysis of the deposited data

Results flagged for a closer look

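The 22 members below drew attention because their change with mithramycin differed between TC71 and TC32 in the test of the difference itself (limma, adjusted p under 0.05, 3 arrays per group). Values are the TC71 effect minus the TC32 effect on the log2 scale. The widest were ZNF232 at 0.80, ZNF239 at 0.70, ZNF227 and ZNF689 at 0.65 each, ZNF765 at 0.63, ZNF22 at 0.62 and ZNF639 at 0.58, the last with 9.54, 9.65 and 9.56 in TC71 with mithramycin against 9.58, 9.82 and 9.67 in controls. ZNF84 stood at 0.47 and ZNF738 and ZNF740 at 0.45 each. ZNF740 rose by 0.41 in TC71 and was at -0.04 in TC32, whereas ZNF738 was at 0.05 in TC71 and fell by 0.40 in TC32. ZNF195 and ZNF397 differed by 0.39 each, ZNF274, ZNF529 and ZNF692 by 0.38 each, and ZNF189 and ZNF398 by 0.35 each. ZNF703, a repressor gene amplified in breast cancer, differed by 0.34, ZNF706 by 0.33, ZNF827 by 0.30 and ZNF121 by 0.28. ZNF81 ran the other way, at -0.51. ZNF692 lay nearest the limit, with an adjusted p of 0.0488, and ZNF274 and ZNF397 each lost the call in 7 of the 12 fits without 1 array. Other named members lost it in fewer settings. ZNF227 and ZNF639 did so with the beta-actin term, and ZNF195 and ZNF706 with centring on housekeeping genes. With the mean of all probe sets ZNF706, ZNF738 and ZNF81 lost it, and ZNF81 also with centring on hybridization controls. The fits without 1 array were followed for the named members and not for all 22.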

How the results depend on the processing

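The counts of members called are given as higher and lower, and the reported ones are 32 and 20 in TC71, 25 and 33 in TC32, 21 and 1 for the difference of effects and 30 and 33 between untreated lines. Centring on hybridization controls gave 18 and 8 in TC71, 8 higher in TC32, 0 lower differences and 18 lower between untreated lines. Over all genes it gave 1748 and 2187 in TC71, 706 higher in TC32, 164 lower differences and 2757 lower between untreated lines. Centring on housekeeping genes gave 10 higher differences. The beta-actin term gave 20 and 11 in TC71, 12 and 2 differences and 20 lower between untreated lines. Over all genes that term changed the TC71 counts from 3828 and 3190 to 2158 and 2461. In limma, lower differences numbered 0 with the mean of all probe sets, and 3 each with genes of mean 6 or above, genes of mean 7 or above, quantile normalization again and a prior trend. A brightness limit of 6 gave 63 and 38 in TC71, 56 and 66 in TC32, 38 and 4 differences and 51 and 77 between untreated lines. A limit of 8 gave 10 and 7, 6 and 13, 6 and 0, and 12 and 11 in the same order. Members chosen again without _x_at and _s_at sets gave 20 lower between untreated lines. The cause of these moves was not tested, apart from the changed number of members.

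Without any 1 array, the counts ran from 28 to 36 and 15 to 22 in TC71, 22 to 26 and 30 to 36 in TC32, 14 to 22 and 1 to 2 for the difference, and 26 to 32 and 28 to 36 between untreated lines, and the correlation of effects from 0.808 to 0.82. The replicate block gave 31 and 20, 24 and 32, 16 and 1, and 28 and 31, though the numbers did not pair the samples.

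These single values changed sign. Without _x_at and _s_at sets ZNF200 was at -0.50 in TC32, -0.02 in TC71 and -0.43 between untreated lines, ZNF532 at 0.14 between untreated lines, and ZNF274 at 0.08 in TC32 and -0.02 for the difference. With the mean of all sets ZNF200 was at -0.03 between untreated lines, ZNF322 at -0.35 in TC32, ZNF81 at 0.15 in TC71 and ZNF738 at 0.02 in TC32. Centred on hybridization controls, ZNF397 was at -0.03 and ZNF281 at -0.05 in TC32. Of 110 called values of named members, 42 lost the call in at least 1 setting.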
